A study of Mus musculus with 8 samples.

Results

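This account covers 10 genes for costimulatory receptors and members of the tumour necrosis factor (TNF) superfamily, out of 22180 genes with a named probe set, in mouse CD4+ T cells from a transfer model of colitis. The genes were chosen by name as Cd28, Icos, Cd27, Cd40lg, Tnfrsf4, Tnfrsf9, Tnfrsf18, Tnfrsf25, Tnfrsf1b and Tnfsf8, and each was read from the probe set whose platform annotation gives that symbol alone. All 10 have 1 such probe set, and all 10 passed the filter on low levels, which left 13308 genes for testing.

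The arrays came from 4 Irak1-/- and 4 wt samples of the C57BL/6 strain. Donor cells were CD4+CD62L+ T cells, the naive and resting fraction, and Irak1-/- cells carrying CD45.2 were injected together with wt cells carrying CD45.1 into Rag1-/- mice. Such recipients lack T and B cells of their own but keep myeloid and natural killer cells. After 14 days CD3+CD4+ cells of each CD45 type were sorted from mesenteric lymph nodes, the cells of 2 recipients being pooled for each of 4 replicate experiments. Each experiment gave 1 Irak1-/- and 1 wt array, here called a pair. Since every Irak1-/- cell carried CD45.2 and every wt cell CD45.1, the deleted gene and the CD45 type cannot be told apart. No age of the mice is stated in the labels.

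A T cell needs a second signal beside its antigen receptor in order to expand and survive. CD28 and ICOS, which bind B7 family ligands, give it through phosphatidylinositol 3-kinase. Receptors of the TNF family, among them CD27, OX40, 4-1BB, GITR, DR3 and TNFR2, give it through TRAF adaptors, which lead to NF-kappaB. CD40 ligand and CD30 ligand run the other way, from the T cell to receptors on the cells it meets. IRAK1 is a kinase that also leads to NF-kappaB, from interleukin-1 family and Toll-like receptors.

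Among the 10 genes, none passed the test between Irak1-/- and wt cells. Tnfsf8, the gene of CD30 ligand, had the largest difference, a 1.34-fold higher level on Irak1-/- arrays (95% confidence interval 1.09 to 1.63). Its limma p was 0.00951 before adjustment and 0.526 after adjustment over all genes. For the other 9 members the 95% interval included no difference, and none of these intervals reached beyond a 1.35-fold higher or a 1.28-fold lower level in Irak1-/- cells. Those intervals are for single genes and are not widened for the number of genes looked at.

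The counts of members read as follows against all genes tested. By limma with Benjamini-Hochberg adjustment, 0 of 10 members had an adjusted p under 0.05, where 0.0751% of all genes did (0.0676% higher and 0.00751% lower in Irak1-/- cells). At an unadjusted p under 0.05 the count was 1 of 10, Tnfsf8, which was higher. Of all genes 6.7% had such a p, 2.88% higher and 3.82% lower. The groups failed to overlap for 0 of 10 members and for 3.04% of all genes, 1.17% higher and 1.86% lower. Icos, Tnfrsf4 and Tnfsf8 were higher in all 4 pairs, or 3 of 10, against 5.26% of all genes. None was lower in all 4, against 8.91%, so that 14.2% of all genes kept 1 sign throughout. The median log2 difference of the members was 0.10, against -0.03 over all genes, and 8 of 10 members lay above 0 while 58.1% of all genes lay below it. Pair by pair, the members' medians were 0.06, 0.04, 0.05 and 0.10.

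Across genes, 1 array stood apart, and the sort was checked on marker genes. The Irak1-/- array of replicate 3 correlated with the others at 0.950 to 0.957, while the other 7 arrays correlated among themselves at 0.969 to 0.981. Pair 3 gave the highest or the lowest of the 4 pair differences for 8 of the 10 members. The share over all genes is not given here, so this count does not set the members apart. Where leaving out a pair moved a member's value by over 1.5 times, the value without it is given beside that member. T cell markers were high, with a mean log2 level over 7 genes of 10.26 to 10.53 on Irak1-/- and 10.42 to 10.54 on wt arrays, and 0 of 7 passed the test in either direction (0 also at an unadjusted p under 0.05). All 11 tested myeloid markers had fitted differences above 0, and 3 of them rose past the adjusted threshold. The mean level over the 11 was 5.73 to 6.37 on Irak1-/- and 4.68 to 4.95 on wt arrays. The groups did not overlap for 7 of the 11. Itgam was lower on the Irak1-/- array in 2 of 4 pairs, and Adgre1, Cd68 and Fcgr3 were each lower in 1 of 4. Over the 3 tested B cell markers of 6 listed the mean level was 4.25 to 4.52 on Irak1-/- and 4.16 to 4.63 on wt arrays, near the array medians of 4.25 to 4.31, and 0 of 3 passed (0 also at an unadjusted p under 0.05). The part of the myeloid signal in the members' values was not tested.

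**Figure D1:**
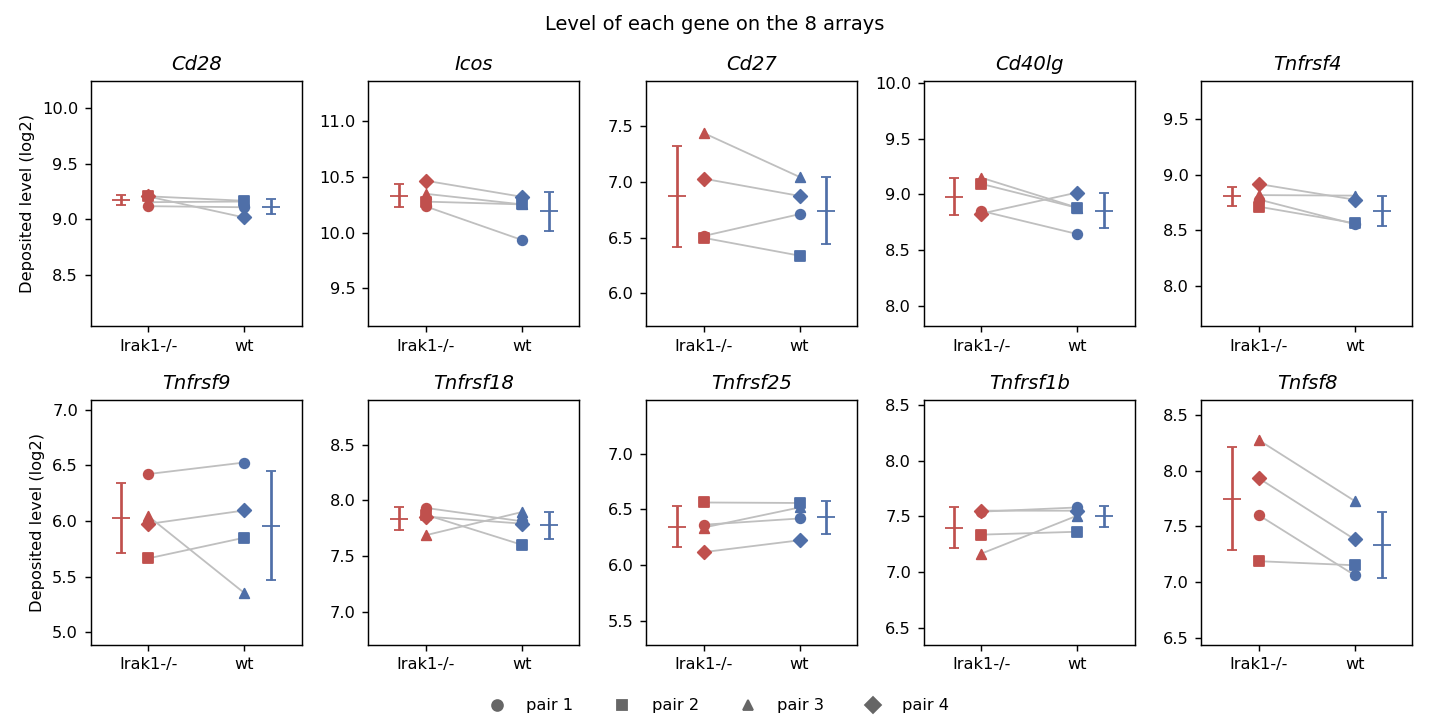
Deposited log2 level (vertical axis, each panel spanning the same width) of the 10 genes on the 4 Irak1-/- arrays (red) and the 4 wt arrays (blue). Grey lines join the arrays of a pair, and side bars give mean ± SD (n = 4 each). The groups overlap in every panel. Tnfsf8 is higher on the Irak1-/- array in all 4 pairs, by 0.04 to 0.55.

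CD30 ligand and CD40 ligand are the members that the T cell shows to other cells. Tnfsf8 encodes CD30 ligand, which appears on activated T cells and binds CD30. It had log2 levels of 7.60, 7.19, 8.27 and 7.93 on Irak1-/- arrays 1 to 4, against 7.06, 7.15, 7.73 and 7.38 on wt arrays 1 to 4. The groups overlapped, and in experiment 3 both arrays were the highest of their group. The means were 7.75 ± 0.464 in Irak1-/- and 7.33 ± 0.297 in wt cells (SD, n = 4 each), a log2 difference of 0.42 (SE 0.126, limma adjusted p = 0.526). Pairs 1, 3 and 4 differed by 0.54, 0.55 and 0.55, and pair 2 by 0.04. Leaving out pair 3 gave 0.37. An unpaired fit on 7 arrays, the Irak1-/- one of replicate 3 being dropped, gave 0.24 (adjusted p = 0.992). That fit kept the wt array of replicate 3, the highest wt level of Tnfsf8, so genotype and experiment are not separated in it. In bulk samples such as these, a difference in the number of cells with a transcript and a difference in its amount per cell cannot be told apart.

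The receptor of CD30 ligand was measured on the same arrays. Tnfrsf8, the gene of CD30, had levels of 4.47, 4.67, 4.29 and 4.51 on Irak1-/- arrays, against 5.14, 4.73, 4.62 and 4.51 on wt arrays. By limma CD30 differed by -0.27 log2 units (SE 0.136, adjusted p = 0.796), below 0 in 4 of 4 pairs, though by under 0.01 in pair 4, and was -0.13 without pair 1. Both means lay close to the array medians, and how far such levels lie above background is unknown.

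Cd40lg encodes CD40 ligand, with which helper T cells license B cells and dendritic cells. Its log2 levels were 8.85, 9.09, 9.15 and 8.83 on Irak1-/- arrays, against 8.64, 8.88, 8.88 and 9.02 on wt arrays. In 3 of 4 pairs the Irak1-/- array was higher, by 0.21 to 0.27, and in pair 4 it was lower by a similar amount. By limma Cd40lg differed by 0.13 log2 units (SE 0.119, adjusted p = 0.918), a fold of 1.09 (95% interval 0.904 to 1.32). The value was 0.08 without pair 3 and 0.23 without pair 4. Cd40, its receptor on B cells and myeloid cells, had a difference of 0.07 (adjusted p = 0.952) and mean levels of 4.62 in Irak1-/- and 4.54 in wt samples.

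Among the members, Tnfsf8, Cd27 and Tnfrsf4 went together most closely over the 8 arrays among those with a promoter sequence at hand. Pearson's r was 0.84 between Cd27 and Tnfsf8, 0.81 between Tnfrsf4 and Tnfsf8 and 0.64 between Cd27 and Tnfrsf4. Icos, which has no promoter sequence at hand, had r of 0.78 with Tnfrsf4, 0.63 with Tnfsf8 and 0.36 with Cd27. These are descriptions over 8 arrays that share recipients in pairs. Over all 45 pairs of members r ran from -0.75 to 0.84 with a median near 0, and 23 of the 45 were above 0, so the 10 genes did not vary as a block. The promoter windows of these 3 genes are shown, from 250 bases before the transcription start to 50 after it (RefSeq, GRCm38.p6, 5′ to 3′ on the gene's strand). Capitals mark matches to a loose NF-kappaB motif (3 G, any 5 bases, 2 C) and to the NFAT core, GGAAA, both searched on both strands.
Tnfsf8, chr4:63861235-63861534, minus strand: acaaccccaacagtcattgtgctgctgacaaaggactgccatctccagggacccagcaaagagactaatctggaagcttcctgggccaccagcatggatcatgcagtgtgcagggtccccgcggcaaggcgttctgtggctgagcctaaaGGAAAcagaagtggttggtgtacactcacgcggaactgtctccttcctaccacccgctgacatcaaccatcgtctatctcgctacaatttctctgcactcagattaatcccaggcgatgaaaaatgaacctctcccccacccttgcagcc
Tnfrsf4, chr4:156013445-156013744, plus strand: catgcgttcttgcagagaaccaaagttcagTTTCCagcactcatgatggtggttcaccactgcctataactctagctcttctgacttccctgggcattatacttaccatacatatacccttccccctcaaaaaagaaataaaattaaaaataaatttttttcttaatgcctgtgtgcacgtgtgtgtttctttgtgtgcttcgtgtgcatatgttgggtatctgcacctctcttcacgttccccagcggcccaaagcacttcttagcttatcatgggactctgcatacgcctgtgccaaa
Cd27, chr6:125236978-125237277, minus strand: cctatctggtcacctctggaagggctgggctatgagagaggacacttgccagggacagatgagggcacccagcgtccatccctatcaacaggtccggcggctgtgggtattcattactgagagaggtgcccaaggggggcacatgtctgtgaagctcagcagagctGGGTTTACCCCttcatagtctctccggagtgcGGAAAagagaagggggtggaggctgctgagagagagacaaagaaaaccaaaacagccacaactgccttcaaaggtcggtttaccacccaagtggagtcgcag

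In these windows the NF-kappaB letters occurred in Cd27 alone, as 2 matches that overlap by all but 1 base, and the NFAT core occurred once in each of the 3. The AP-1 motif TGANTCA was in none of the 3. None of the motifs overlapped another motif in them. Such letters are common: 50.8% of 32851 promoter windows of the same length hold the NF-kappaB motif, 61.3% the NFAT core and 7.81% the AP-1 motif. Of 9 windows that the table gives for 7 members, 5, 8 and 1 hold them. A match describes letters, not a bound site.

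CD28 and ICOS are the members of the immunoglobulin superfamily, and their genes lie on chromosome 1 on either side of Ctla4. Cd28 encodes the receptor for CD80 and CD86 that naive T cells depend on. It was the steadiest member, with log2 levels of 9.12, 9.21, 9.15 and 9.20 on Irak1-/- arrays, against 9.11, 9.17, 9.16 and 9.02 on wt arrays. The 8 values spanned less than 0.20, and limma gave 0.06 log2 units for the genotype (SE 0.105, adjusted p = 0.952), a fold of 1.04 (95% interval 0.882 to 1.23). Pair 4 carried most of it, since the value was 0.015 without that pair.

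Icos encodes the inducible costimulator, which follows activation and binds ICOS ligand. Log2 levels were 10.23, 10.28, 10.35 and 10.47 on Irak1-/- arrays, against 9.93, 10.25, 10.25 and 10.32 on wt arrays. The Irak1-/- array was higher in 4 of 4 pairs, by 0.02 to 0.30, while the groups overlapped. The fitted value was 0.14 log2 units higher (SE 0.107, limma adjusted p = 0.893), a fold of 1.10 (95% interval 0.931 to 1.31), and 0.09 without pair 1. Ctla4, the inhibitory receptor that competes with CD28 for its ligands, lay between them on the chromosome and had a difference of 0.08 (adjusted p = 0.948).

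The ligands of CD28 and ICOS belong to antigen-presenting cells. Cd80 had a log2 difference of -0.22 (adjusted p = 0.898), which pair 1 alone carried (0.0019 without it). Its pair differences were -0.90, -0.22, 0.01 and 0.22. Cd86 had 0.02 (adjusted p = 0.992) and Icosl 0.02 (adjusted p = 0.987). On the same arrays the myeloid markers' mean differed by 0.79 to 1.42 in the 4 pairs. Of 4 tested dendritic cell markers, 2 lay above and 2 below 0 with a median of -0.03, and by limma 0 passed (0 higher and 1 lower at an unadjusted p under 0.05). The lower one, Itgax, the gene of CD11c, had -0.59 (adjusted p = 0.501) and was lower in 4 of 4 pairs. The part of either cell type in these values was not tested. None of these 3 ligands was higher or lower in all 4 pairs.

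OX40 and GITR, encoded by Tnfrsf4 and Tnfrsf18, are TNF receptors of activated and regulatory T cells, and their genes are next to each other among coding genes on chromosome 4. Tnfrsf4 had log2 levels of 8.78, 8.71, 8.82 and 8.91 on Irak1-/- arrays, against 8.55, 8.56, 8.81 and 8.77 on wt arrays. It was higher on the Irak1-/- array in 4 of 4 pairs, with pair differences of 0.22, 0.15, under 0.01 and 0.14, and the groups overlapped. For OX40 the fit gave 0.13 log2 units (SE 0.105, limma adjusted p = 0.902), a fold of 1.09 (95% interval 0.926 to 1.29).

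Tnfrsf18 had log2 levels of 7.93, 7.87, 7.69 and 7.85 on Irak1-/- arrays, against 7.81, 7.60, 7.89 and 7.79 on wt arrays. The Irak1-/- array was higher in pairs 1, 2 and 4 and lower in pair 3, by 0.21. Over the 4 pairs Tnfrsf18 differed by 0.06 log2 units (SE 0.117, limma adjusted p = 0.955). It was 0.15 without pair 3, 0.04 without pair 1 and 0.06 without pair 4. Without pair 2 it was -0.01, so its sign rests on that pair. A further probe set, annotated to both Tnfrsf18 and Gm16008, read 5.65, 5.36, 4.94 and 5.21 on Irak1-/- arrays and 5.50, 5.33, 5.37 and 5.30 on wt arrays, and was not tested because it has 2 symbols.

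Regulatory T cells carry much OX40, GITR and ICOS, and their markers were measured beside these receptors. All 7 listed markers were tested, 4 of them above 0 and 3 below, and 0 passed (at an unadjusted p under 0.05 there was 1, Itgae, higher). Foxp3, the factor that defines these cells, had log2 levels of 6.86, 6.00, 6.39 and 7.20 on Irak1-/- arrays, against 6.75, 6.30, 6.62 and 7.01 on wt arrays. The fit for Foxp3 gave -0.06 log2 units (SE 0.125, limma adjusted p = 0.960). Mean levels over the 7 genes were 6.24 to 6.75 on Irak1-/- and 6.38 to 6.62 on wt arrays, so the ranges of the groups overlapped. Il2ra had a difference of -0.25, Ikzf4 -0.09 and Itgae 0.61, with adjusted p of 0.856, 0.936 and 0.352.

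CD27 and 4-1BB are TNF receptors that sustain T cells early and late after activation. Cd27 had log2 levels of 6.51, 6.50, 7.44 and 7.03 on Irak1-/- arrays, against 6.71, 6.34, 7.04 and 6.87 on wt arrays. Arrays of experiment 3 were the highest in both groups, and the groups overlapped over most of their range. The fitted difference of Cd27 was 0.13 log2 units (SE 0.124, limma adjusted p = 0.920). It was 0.24 without pair 1, 0.04 without pair 3 and turned to -0.06 in the unpaired fit on 7 arrays. That fit kept the wt array of experiment 3, the highest wt level of Cd27, without its Irak1-/- partner. Genotype and experiment are therefore not separated in it.

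Tnfrsf9, which encodes 4-1BB, had the widest range among wt arrays of all members. Its log2 levels were 6.42, 5.66, 6.04 and 5.97 on Irak1-/- arrays, against 6.53, 5.85, 5.35 and 6.09 on wt arrays. The Irak1-/- array was lower in pairs 1, 2 and 4, by 0.10 to 0.19, and higher in pair 3, by 0.69. Over all pairs limma gave 0.07 log2 units (SE 0.159, adjusted p = 0.961). Without pair 3 the value was -0.14 (adjusted p = 0.910), so its sign rests on pair 3, and it was 0.13 to 0.15 with any other pair left out. Tnfsf9, the gene of its ligand, had levels of 6.63, 6.67, 6.07 and 6.61 on Irak1-/- arrays, against 6.84, 6.86, 6.57 and 6.53 on wt arrays, and a difference of -0.20 (adjusted p = 0.860).

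DR3 and TNFR2 were the 2 members below 0. Tnfrsf25 encodes DR3, the receptor for the cytokine TL1A. Its log2 levels were 6.36, 6.56, 6.34 and 6.12 on Irak1-/- arrays, against 6.42, 6.56, 6.52 and 6.22 on wt arrays. In 3 of 4 pairs the Irak1-/- array was lower, by 0.06 to 0.18, and pair 2 showed nearly the same level in both. DR3 thus had a fitted difference of -0.08 log2 units (SE 0.104, limma adjusted p = 0.942), a fold of 0.943 (95% interval 0.800 to 1.11), and -0.05 without pair 3. Tnfsf15, the gene of TL1A, had a difference of -0.16 (adjusted p = 0.889) at means of 3.90 in Irak1-/- and 4.06 in wt samples, below every array median.

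Tnfrsf1b encodes TNFR2, the TNF receptor without a death domain, which T cells and myeloid cells carry. Its log2 levels were 7.54, 7.34, 7.16 and 7.55 on Irak1-/- arrays, against 7.58, 7.36, 7.51 and 7.55 on wt arrays. Pairs 1, 2 and 4 differed by at most 0.04, and pair 3 by -0.34. The fit gave -0.10 log2 units (SE 0.112, limma adjusted p = 0.936), or -0.02 when pair 3 was dropped. Its ligand gene Tnf read 8.29, 8.03, 7.50 and 7.82 on Irak1-/- arrays, against 8.66, 8.48, 8.36 and 8.12 on wt arrays, with a difference of -0.50 (SE 0.126, adjusted p = 0.404). Lta, the gene of the other ligand of TNFR2, had -0.08 (adjusted p = 0.950), and Tnfrsf1a, which encodes the TNF receptor with a death domain, had 0.08 (adjusted p = 0.958).

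**Figure D2:**
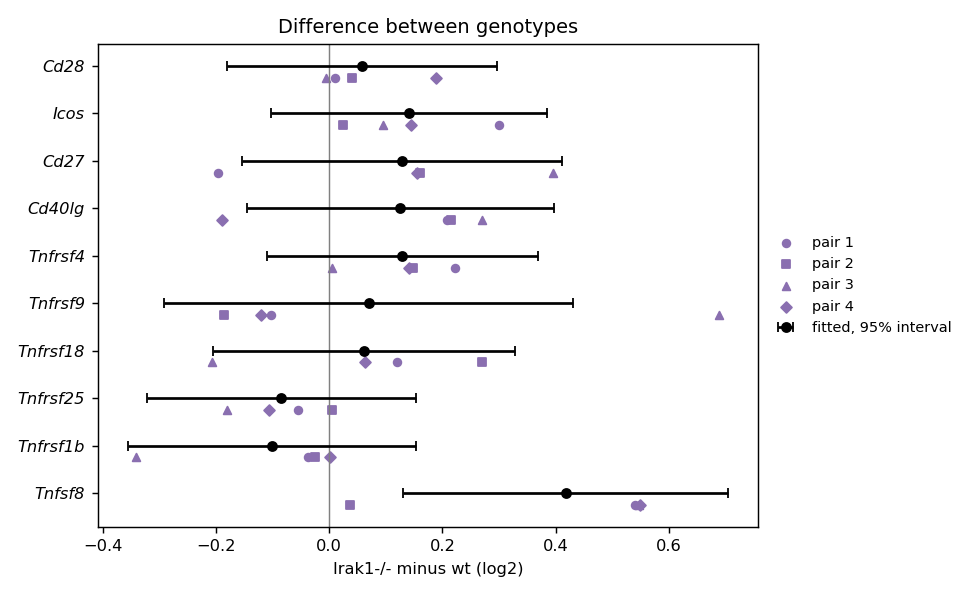
Irak1-/- minus wt on the log2 scale (horizontal axis) for the 10 genes. Black points are fitted differences with 95% confidence intervals from limma, and purple marks under them are the 4 pair differences. The interval of Tnfsf8 (0.13 to 0.70) lies above 0 before any adjustment, the other 9 include 0, and pair 3 (triangles) lies at an end of the 4 values for 8 genes.

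Tnfsf8, Cd27 and Tnfrsf9 varied the most between experiments. Mean levels of the 2 arrays of an experiment spanned 0.83 on the log2 scale for Tnfsf8, 0.82 for Cd27 and 0.77 for Tnfrsf9, and 0.08 to 0.39 for the other 7 members. Tnfsf8 and Cd27 had the same order of experiments, with means of 7.33, 7.17, 8.001 and 7.66 for Tnfsf8 and 6.61, 6.42, 7.24 and 6.95 for Cd27 in experiments 1 to 4. Tnfrsf9 had another order, with 6.47, 5.76, 5.70 and 6.03. A limma F test across experiments gave unadjusted p of 0.00584 for Tnfsf8, 0.00568 for Cd27 and 0.0279 for Tnfrsf9, with adjusted p of 0.407, 0.407 and 0.482. At an unadjusted p under 0.05 these were 3 of 10 members, against 9.66% of all genes, and after adjustment 0 of 10 members and 0% of all genes passed.

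Genes with the most similar pattern over the 8 arrays were looked up for each member, by Pearson's r of the log2 level. The closest gene reached 0.946 to 0.989 over the 10 members, each being the highest of 13308 genes over 8 arrays that share recipients in pairs. Tnfsf8 was closest to P3h3, a collagen hydroxylase (r = 0.989), and next to Ccr7 (r = 0.980), the chemokine receptor that brings T cells into lymph nodes. Ccr7 had log2 levels of 6.57, 6.43, 7.40 and 6.94 on Irak1-/- arrays, against 6.17, 6.21, 6.79 and 6.44 on wt arrays. Its difference of 0.43 (SE 0.113, limma adjusted p = 0.430) and the 0.42 of Tnfsf8 were alike in size, and both genes were highest in experiment 3. Ccr7 was picked for its likeness to Tnfsf8 on these same arrays, so these shared features are not independent of that choice. Cd27 was closest to Ifi208 (r = 0.986), of the interferon-activated gene family, and Tnfrsf9 to Ly6a2 (r = 0.986) and Tnfrsf23 (r = 0.958). The closest gene was Atad1 for Cd28, Aurkc for Icos, ND5 for Cd40lg, Tob2 for Tnfrsf4, Zfp956 for Tnfrsf18, Ahnak for Tnfrsf25 and Gstp1 for Tnfrsf1b.

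**Figure D3:**
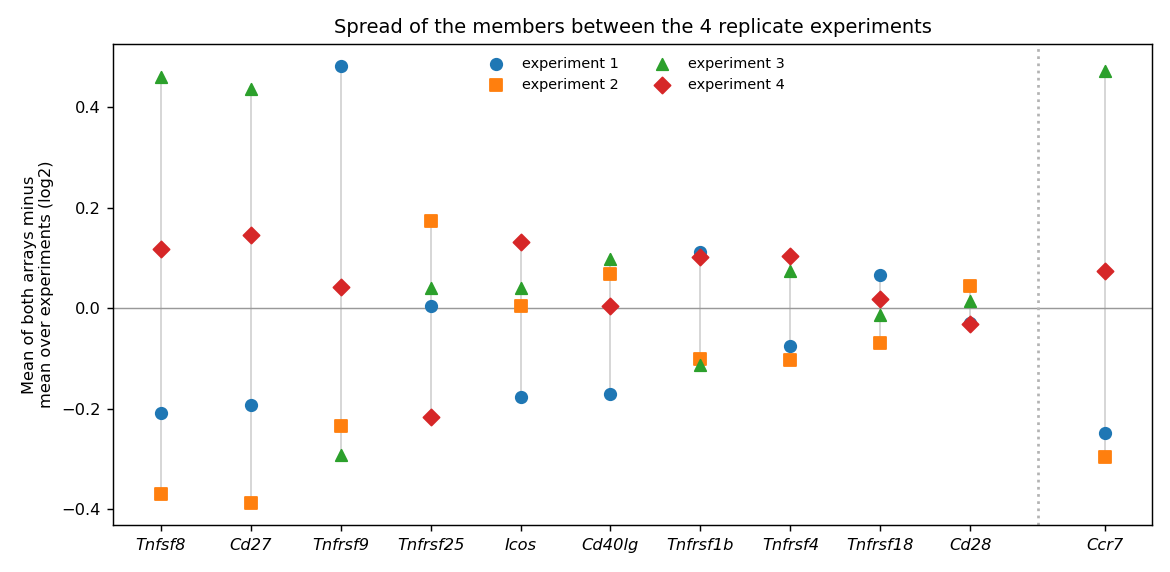
Mean log2 level of the 2 arrays of each replicate experiment, minus the mean over experiments (vertical axis), for the 10 members in order of their range and for Ccr7. Each mark is 1 experiment with 1 Irak1-/- and 1 wt array. Tnfsf8, Cd27 and Ccr7 are highest in experiment 3 and lowest in experiment 2, whereas Tnfrsf9 is highest in experiment 1. Ccr7 was picked for its likeness to Tnfsf8 on the same arrays.

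The partners of the members, a list of 19 ligands, co-receptors and inhibitory relatives, showed no called gene. Of 15 tested, 8 lay above and 7 below 0, with a median log2 difference of 0.02 and a mean of -0.02, against a median of -0.03 for all genes. By limma 0 passed in either direction, and at an unadjusted p under 0.05 there was 1 higher and 0 lower. That gene was Btla, an inhibitory receptor that binds HVEM, higher in 4 of 4 pairs, with a fitted difference of 0.30 log2 units (SE 0.109, limma adjusted p = 0.655). Tnfsf4, Tnfsf18, Cd70 and Tnfsf14, the genes of OX40 ligand, GITR ligand, the CD27 ligand CD70 and LIGHT, lay under the level needed for testing. Their means on Irak1-/- arrays were 3.71, 3.24, 3.66 and 4.02, against 3.28, 3.17, 3.29 and 3.71 on wt arrays.

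Other TNF superfamily genes gave 19 tested of 28 listed, 7 above and 12 below 0, with a median of -0.04 (-0.081 to -0.020 with 1 pair left out). By limma 0 passed, and at an unadjusted p under 0.05 there were 0 higher and 2 lower. These were Tnf and Fasl, the gene of the death ligand of CD95. Fasl read 8.34, 8.03, 7.75 and 8.17 on Irak1-/- arrays, against 8.60, 8.51, 8.80 and 8.71 on wt arrays, so its groups did not overlap. Its difference was -0.58 (SE 0.141, limma adjusted p = 0.401). Fasl was 1 of 19 tested genes of this list without overlap, and 1.86% of all genes were lower without overlap. On the same arrays 7 natural killer and CD8 T cell markers had mean levels of 5.33 to 5.58 (Irak1-/-) and 5.74 to 5.79 (wt). Of these 7 markers, 3 lay above and 4 below 0, with log2 differences from -0.66 to 0.31. By limma 0 of 7 were called (0 higher and 4 lower at an unadjusted p under 0.05). Their part in the value of Fasl was not tested. Fas, its receptor, had 0.29 and the decoy-type receptor gene Tnfrsf26 0.25, with adjusted p of 0.778 and 0.791.

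The relays below TNF receptors gave 17 tested of 20 listed, 6 above and 11 below 0, with a median of -0.06. The sign of that median rests on pair 3, since it was 0.015 without pair 3 and -0.11 to -0.04 with another pair left out. By limma 0 passed, and at an unadjusted p under 0.05 there were 0 higher and 2 lower. The lower count was 1 without pair 1 or pair 3 and 0 without pair 2 or pair 4. Tnfaip3, the ubiquitin-editing enzyme A20 that limits NF-kappaB, had a log2 difference of -0.29 (SE 0.112, limma adjusted p = 0.675), and Traf1, an adaptor that 4-1BB recruits, had -0.26 (SE 0.112, adjusted p = 0.741). Both were lower in 4 of 4 pairs, as was Birc3, a ubiquitin ligase bound by TRAF2, with -0.19 (adjusted p = 0.812). Traf5, an adaptor of CD27 and OX40, had 0.21 (adjusted p = 0.862).

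The relays of CD28 and the T cell receptor showed the narrowest spread of these lists, from -0.16 to 0.10 over 16 tested of 20 listed. Of these, 5 lay above and 11 below 0, with a median of -0.05 (-0.068 to -0.031 with 1 pair left out), and by limma 0 passed (0 also at an unadjusted p under 0.05). Lcp2, the scaffold SLP-76, had the smallest p, with a difference of -0.16 (SE 0.122, limma adjusted p = 0.891). It was lower in 4 of 4 pairs, by 0.51 in pair 3 and at most 0.10 in the others, and without pair 3 the value was -0.05. Akt1, a kinase downstream of CD28, had -0.13 (adjusted p = 0.910), and Carmil2, a scaffold that links CD28 to the cytoskeleton, had -0.10 (adjusted p = 0.925).

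**Figure D4:**
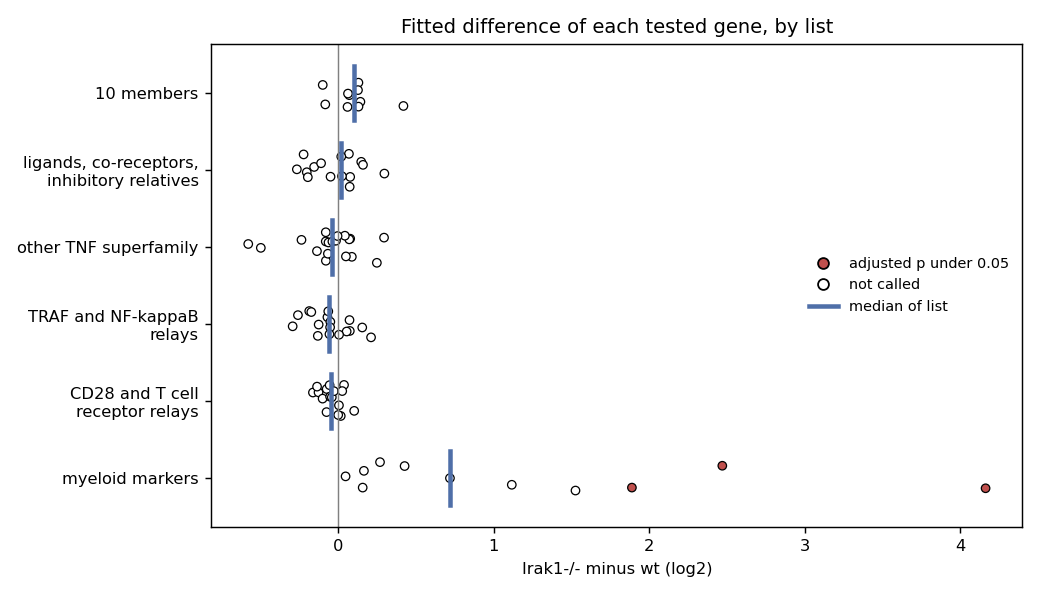
Fitted Irak1-/- minus wt difference on the log2 scale (horizontal axis) of each tested gene, for the 10 members, the 4 lists around them and the 11 myeloid markers. Filled points passed an adjusted p under 0.05 and blue bars are medians. Only 3 myeloid markers are filled, and the members' bar stands at 0.10.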

How the data were processed

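Gene expression was measured in 4 Irak1-/- and 4 wt samples. Each array has values for 41345 probe sets, which the authors deposited on a log2 scale. No source used here says how they corrected background, summarized probes or normalized. Values ran from 0.681 to 14.0. Arrays have no counts, so their number limits the precision.

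Probe sets with 1 symbol (23521) were named from the platform's annotation, updated through the GRCm38.p6 gene table for 23328 of them. Those with several (1814) or no symbol (16010) were not analysed as genes. Each gene was read from its probe set with the highest mean. Genes under the 40th percentile of mean level (3.90) were left out.

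Irak1-/- was set against wt in R 4.3.3 with limma 3.58.1 (lmFit and eBayes) with the batch label as a block, two-sided, p values adjusted by Benjamini-Hochberg over all 13308 genes, threshold 0.05. The labels pair the arrays by batch, each pair sharing pooled recipients. Deviations of paired arrays correlated at 0.185, 0.143, 0.200 and 0.0799. The F test across experiments used the same fit. The procedure was tested on simulated data.

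All members are named, with list and marker genes that passed or had up to 4 of the smallest p, and the 3 genes most like each member. Others (Cd40, Cd80, Cd86, Icosl, Ctla4, Lta, Tnfrsf1a, Foxp3 and ligands under the filter) were chosen as partners or markers of members with their values known. Not all genes that the rule allows are printed. Members and lists were chosen with earlier results of these data known. List genes without a probe set of 1 symbol were not analysed here, among them all 4 erythroid markers. Alternatives concerned the pairing, normalization, level filter, choice of probe set, variance moderation and left-out arrays.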

Additional observations from a re-analysis of the deposited data

How the results depend on the processing

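The member differences were recomputed under 14 alternatives. Of 140 values, 137 kept their direction and stayed short of the threshold, and 3 changed sign: Tnfrsf18 without pair 2, Tnfrsf9 without pair 3, and Cd27, to -0.061, in the fit with no replicate block and without the Irak1-/- array of replicate 3. No member and no gene of the 4 lists around them (partners, other TNF superfamily, both sets of relays) passed under any of the 14. The fit with no replicate block kept every difference and raised the unadjusted p of Tnfsf8 to 0.0883, and with batch as a random replicate block it was 0.0597. The difference of Tnfsf8 ran from 0.24 to 0.54, with adjusted p from 0.360 to 0.992. With 1 pair left out at a time, Tnfrsf18 ran from -0.0081 to 0.151 and Tnfrsf9 from -0.137 to 0.155. The members' median was 0.067 in the unpaired fit without that array, and 0.079 to 0.122 as pairs were left out. The partners' median was 0.067 without the level filter, -0.020 with the mean of probe sets and -0.050 without that array, and ran from -0.021 to 0.0019 as pairs were left out. The relays' median below TNF receptors changed sign without pair 3, to 0.015. With 1 pair left out, signs also changed for Cd40, Cd80, Cd86, Icosl, Lta, Tnfrsf1a, Foxp3, Bcl6 and Pdcd1, none of which passed. These are not all: further list and marker genes changed sign too, among them Slamf1, Ltbr, Map3k14 and Traf4. Over all genes, 9 were called higher and 1 lower. The counts were 14 and 2 with a random block or with median centring, 16 and 1 without pair 1, 6 and 1 without pair 2, 12 and 2 with a filter at the 60th percentile, 13 and 3 with trend and robust moderation, and 0 and 0 with every probe set tested. With every probe set tested, the SE of Tnfsf8 was 0.135, against 0.126 in the main fit, so more than the number of tests changed. The cause of the changes in these counts was not tested.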

Other observations

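Costimulation follows antigen contact, and genes of recent activation and of follicular helper T cells, which rely on ICOS and CD40 ligand, were measured on the same arrays. Of 5 activation genes, 2 lay above and 3 below 0 with a median log2 difference of -0.12, and by limma 0 passed after adjustment (0 higher and 2 lower at an unadjusted p under 0.05). Nr4a1, an early gene of antigen receptor signalling, had log2 levels of 7.74, 7.21, 7.10 and 7.92 on Irak1-/- arrays, against 8.31, 8.36, 7.98 and 8.36 on wt arrays. Its groups did not overlap (limma difference -0.76, SE 0.138, adjusted p = 0.162). Cd69, an early activation antigen, had levels of 8.81 to 9.08 on Irak1-/- and 9.34 to 9.60 on wt arrays, also without overlap, and a difference of -0.51 (SE 0.116, adjusted p = 0.336). Among all genes tested, 1.86% were lower without overlap. Egr2 went the other way, with 0.27 (SE 0.167, limma adjusted p = 0.861). It was higher in 3 of 4 pairs, and 0.06 without pair 4. Egr1 had -0.12 (adjusted p = 0.921).

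All 4 follicular helper markers had fitted differences above 0, with a median log2 difference of 0.22. In pair 2, however, all 4 lay below 0, with a median of -0.06. By limma 0 passed after adjustment (2 higher and 0 lower at an unadjusted p under 0.05). Cxcr5, the receptor that leads T cells into follicles, had levels of 6.71, 6.47, 7.70 and 7.14 on Irak1-/- arrays, against 6.44, 6.54, 6.83 and 6.39 on wt arrays. Its highest value was on the Irak1-/- array of replicate 3, and its difference was 0.46 (SE 0.164, adjusted p = 0.642). Il21, a cytokine of these cells, had 0.34 (SE 0.144, adjusted p = 0.736), and Bcl6 and Pdcd1 had 0.09 and 0.01. Il21 differed by 0.80 in pair 4 and was 0.19 without that pair. Bcl6 was -0.02 without pair 4. Pdcd1 was below 0 in 3 of 4 pairs and -0.13 without pair 1.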
